A study of Arabidopsis thaliana with 21 samples.

Results

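Hypocotyls of the strigolactone-pathway mutant max1 of Arabidopsis thaliana were compared with hypocotyls of intact wild-type plants of the accession Col-0. The comparison takes the 3 arrays labelled max1 and the 3 arrays labelled as intact wild type, 6 of the 21 arrays of the study. The study profiled hypocotyls, the stem between root and rosette, of 2-week-old plants on Affymetrix ATH1 arrays, with 3 biological replicates in each of 7 groups. The other groups were max2, max3, decapitated wild type, decapitated wild type given 3 mg/mL of the auxin indole-3-acetic acid (IAA), and wild type given 3 mg/mL of N-1-naphthylphthalamic acid (NPA), an inhibitor of auxin transport. Plants of every group, max1 and intact wild type included, received lanolin with less than 10% ethanol, and hypocotyls were taken 24 h later. A replicate pooled 120 to 150 hypocotyls and was collected over 60 to 80 min, and the treatments of a replicate were done at the same time. The labels give the genotype only as max1, with neither the allele nor the background in which it is carried.

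MAX1 encodes a cytochrome P450 that acts late in the synthesis of strigolactones, carotenoid-derived hormones that restrain the outgrowth of axillary buds. MAX3 is a carotenoid cleavage dioxygenase that acts early in the same synthesis, and MAX2 is the F-box protein of the complex that passes on the strigolactone signal and that of the related karrikin pathway. All 3 mutants branch more than wild type, and strigolactones are also known to affect auxin transport and the secondary growth of the stem. The comparison asks which transcripts differ in the stem of a plant that lacks the late synthesis step.

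Values are deposited log2 expression levels, so a difference of 1 is a change of 2-fold, and every difference is max1 minus intact wild type unless another is named. Values below 3.5 pile up in a low peak, 35.7% to 36.4% of each array's values, and levels there are close to background. The 3 max1 arrays had medians of 6.28 to 6.36 and the 3 intact arrays 6.25 to 6.30. Pairs of max1 arrays correlated at 0.990 to 0.993, pairs of intact arrays at 0.990 to 0.994, and max1 arrays with intact arrays at 0.981 to 0.988. No probe set was named for MAX1, MAX2 or MAX3, so the mutated genes were not analysed here and do not check the labels. Of the marker genes of other tissues, CLV3 and UFO of the shoot apex averaged 1.97 and 1.81 in max1 and 2.00 and 1.83 in intact wild type. The root hair expansin EXPA7 was as low, at 1.83 and 1.84, while PYK10, a root-enriched glucosidase, was at 14.73 in max1 and 14.79 in intact wild type. Differences of the leaf genes RCA and LHCB4.2 (0.54 and -0.01) and of the phloem gene OPS (-0.24) did not pass the test, and xylem and epidermis had no measured marker.

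Of 22746 probe sets, 436 were higher (1.92%) and 415 lower (1.82%) in max1 at an adjusted p below 0.05 (limma on all 21 arrays, two-sided, Benjamini-Hochberg), 3.74% together. With the replicate number as a block, which the labels and the arrays bear out, 697 were higher and 721 lower. Fitted on the 6 arrays of these 2 groups alone, 102 were higher and 96 lower, and 35 of the 52 calls on named genes were lost; the adjusted p of that 2-group fit is given below for each gene that it takes above 0.05. The median size of the called differences was 1.37 among the raised and -0.85 among the lowered probe sets. Differences of at least 1 were seen in 311 raised and 171 lowered probe sets, and differences of at least 4 in 23 raised and 6 lowered ones. Of the 13513 probe sets that name 1 gene 223 were higher (1.65%) and 228 lower (1.69%), and 42 and 35 of these carried a gene symbol. All arrays of max1 lay above those of intact wild type in all 436 raised probe sets, and below them in 412 of the 415 lowered ones; the 3 and 3 arrays do not overlap in 19.3% of all probe sets. The median difference over all probe sets was -0.03, and subtracting the median of each array gave 405 higher and 589 lower, so that the share of calls that were higher was 40.7%, against 51.2% as deposited. In these bulk samples fewer cells of a type and less RNA per cell cannot be told apart.

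**Figure D1:**
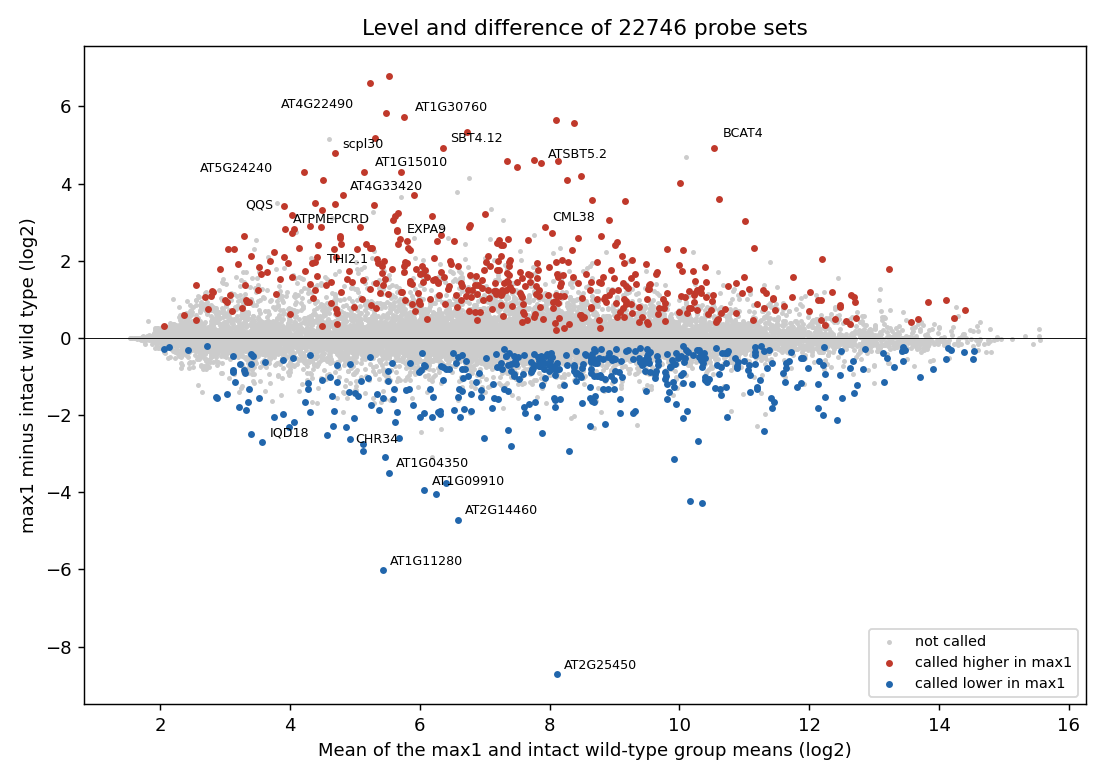
Each point is 1 of 22746 probe sets, with the mean of both group means on the x axis and the difference max1 minus intact wild type on the y axis, both in log2 units. Called probe sets are red (436, higher in max1) or blue (415, lower in max1), and the lowest point is AT2G25450 at -8.72.

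SBT4.12, ATSBT5.2, scpl30, ATPMEPCRD and EXPA9 were among the 12 most raised genes with a symbol. The most raised and most lowered genes, with or without a symbol, were taken only where the max1 and intact arrays did not overlap. For these genes the lack of overlap is a condition of the choice and not a result. SBT4.12, a subtilisin-like serine protease, was at 8.75, 9.26 and 8.45 in the max1 arrays and at 3.34, 4.04 and 4.28 in the intact arrays. The groups lay far apart, with the intact arrays at or just above the low peak, and the difference was 4.93 ± 0.38 (SE, n = 3 each, adjusted p = 2.3e-06, limma). ATSBT5.2, a second subtilase, was at 9.89, 10.14 and 10.37 in max1, against 5.34, 4.49 and 7.0 in intact wild type. All max1 arrays lay above all intact arrays although intact replicate 3 was well above replicates 1 and 2, and the difference of 4.52 ± 0.48 is a change of 23-fold (adjusted p = 7.4e-05, or 0.071 in the 2-group fit). Of the 10 subtilases measured, these 2 were higher and none was lower, with a list median of 0.36 against -0.03 over all probe sets. Among all probe sets that name 1 gene 1.65% were higher. The other 8 included ARA12, a subtilase of the cell wall best known from the seed coat, at 11.68 in max1 and 11.55 in intact wild type.

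The serine carboxypeptidase-like gene scpl30 was at 6.19, 7.58 and 7.48 in max1 and at 2.29, 2.30 and 2.32 in intact wild type. It lay in the low peak in every intact array and well above it in every max1 array, with a difference of 4.78 ± 0.46 (adjusted p = 2.8e-05, limma). In a family count added after the values were seen, 29 serine carboxypeptidase-like genes were measured. Of these 3 were higher, namely scpl30, scpl20 (0.93) and scpl48 (0.80), and 2 were lower, namely scpl35 (-0.93) and SCPL27 (-0.62). The family median was -0.02, and among all probe sets that name 1 gene 1.65% were higher and 1.69% lower.

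ATPMEPCRD, a pectin methylesterase, which trims methyl groups from pectin, was at 4.93, 5.94 and 5.16 in max1 and at 2.45, 2.54 and 2.56 in intact wild type. The gene again left the low peak in max1 alone of these 2 groups, with a difference of 2.83 ± 0.41 (adjusted p = 0.00089). It was the only 1 of 4 measured pectin enzymes that passed, although the list median was 0.80 and PME61, another methylesterase, differed by 1.16 ± 0.36 (adjusted p = 0.098). EXPA9, an expansin, a protein that loosens walls, was at 7.27, 7.33 and 6.33 in max1 and at 4.84, 3.23 and 5.15 in intact wild type. The arrays did not overlap, and the difference was 2.57 ± 0.50 (adjusted p = 0.0081, or 0.16 in the 2-group fit). A second expansin, EXPA20, was higher by 1.11 ± 0.19 (adjusted p of 0.088 in the 2-group fit), and the 16 other expansins measured did not pass, so that the median of the 18 was -0.01. Beside the counts of pectin enzymes and of expansins stands a share of 1.65% higher among all probe sets that name 1 gene.

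The second most raised gene with a symbol was BCAT4, the aminotransferase that starts the chain elongation of methionine for aliphatic glucosinolates, sulfur-rich defence compounds. It was at 11.80, 13.12 and 14.06 in max1 and at 7.68, 8.79 and 7.75 in intact wild type. Even the lowest max1 array was far above the highest intact array, and the mean difference was 4.92 ± 1.25, a change of 30.3-fold. The SE rests on the spread in all 7 groups, with an SD of 1.14 in max1, 0.62 in intact wild type and 3.19 in NPA-treated plants. By limma the adjusted p was 0.041. It was above 0.05 without any 1 of the 6 arrays (0.054 to 0.15), and 0.062 in the 2-group fit. AT2G31790, listed with this pathway, was at 10.56, 10.78 and 11.40 in max1 and at 9.22, 9.41 and 8.87 in intact wild type, a difference of 1.75 ± 0.29 (adjusted p = 0.0028, or 0.077 in the 2-group fit). The third measured gene of this list, AOP3, lay in the low peak in both groups (2.86 and 2.89). The glucosinolate importers GTR1 and GTR2 differed by 0.74 and -0.06, and none of 3 genes of indole glucosinolates and transport passed.

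MGL, the methionine gamma-lyase that breaks methionine down, moved the other way. It was at 4.35, 3.09 and 4.42 in max1 and at 6.17, 6.30 and 5.62 in intact wild type, with no overlap and a difference of -2.08 ± 0.32 (adjusted p = 0.0014, or 0.13 in the 2-group fit, both limma).

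QQS, a gene found only in Arabidopsis thaliana and known to shift the balance of starch and protein, was at 5.40, 6.12 and 5.35 in max1 and at 2.44, 2.42 and 2.47 in intact wild type. It was in the low peak in each intact array and out of it in each max1 array, and the difference was 3.18 ± 0.15 (adjusted p = 5.1e-09). QQS shared its list, nitrogen status, with GAT1_2.1 and the nitrate transporter NRT2.5. GAT1_2.1, a glutamine amidotransferase-like gene, averaged 4.64 in max1 and 7.73 in intact wild type, a difference of -3.09 ± 1.13 that did not pass (adjusted p = 0.17). NRT2.5 lay in the low peak in both groups. APL4, a large subunit of ADP-glucose pyrophosphorylase, the entry enzyme of starch synthesis, was at 4.83, 4.47 and 5.50 in max1 and at 2.37, 3.01 and 3.60 in intact wild type. Each max1 array exceeded each intact array, and the difference was 1.94 ± 0.36 (adjusted p = 0.0057, or 0.14 in the 2-group fit). Of the 20 genes on the list of sugar and starch, TMT1, a vacuolar monosaccharide transporter, was lower by 1.23 and the others did not pass. Its adjusted p of 0.019 became 0.079, 0.066 or 0.056 without max1 replicate 2, intact replicate 2 or intact replicate 3, and it was 0.12 in the 2-group fit. Beside this count stands a share of 1.69% lower among all probe sets that name 1 gene.

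CML38, a calmodulin-like protein, was at 8.70, 9.73 and 9.68 in max1 and at 6.91, 6.82 and 5.72 in intact wild type. The groups were apart by more than their spread, with a difference of 2.89 ± 0.64 (adjusted p = 0.019), which became 0.067, 0.077 or 0.084 without max1 replicate 2, max1 replicate 3 or intact replicate 3, and 0.082 in the 2-group fit. SQN, the cyclophilin known from the change from juvenile to adult leaves, was at 4.63, 3.90 and 4.86 in max1 and at 2.36, 2.66 and 1.99 in intact wild type. It too left the low peak only in max1 of these 2 groups (2.12 ± 0.21, adjusted p = 5.0e-05, or 0.069 in the 2-group fit). THI2.1, a thionin, an antimicrobial peptide, averaged 5.65 ± 1.27 in max1 and 3.23 ± 0.13 in intact wild type (SD, n = 3 each), with an adjusted p of 0.037 by limma. Its max1 arrays ranged from 4.32 to 6.85, and the call held only without max1 replicate 1, the adjusted p reaching 0.16 without max1 replicate 3 and 0.083 to 0.10 without max1 replicate 2 or any 1 of the intact arrays. It was also lost with array weights (0.074) and in the 2-group fit (0.21). ROXY2, a glutaredoxin known from anthers, averaged 8.37 in max1 and 6.39 in intact wild type (1.98 ± 0.46, adjusted p = 0.026). Its adjusted p was 0.080 to 0.11 without max1 replicate 1, max1 replicate 2, intact replicate 1 or intact replicate 2, and it was 0.22 in the 2-group fit.

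Several of the raised genes carry no symbol in the annotation used here. AT4G22490 was at 8.28, 6.73 and 10.16 in max1 and at 3.06, 2.41 and 2.22 in intact wild type. The max1 arrays were all far above the intact arrays but also far from each other. The difference of 5.82 ± 1.51, with an SE that rests on the spread in all 7 groups, had an adjusted p of 0.044 (limma). That call held only without max1 replicate 2, and the adjusted p was 0.087 to 0.17 without any other array. The adjusted p was 0.081 in the 2-group fit, and over the probe sets that name 1 gene it was 0.051. AT1G30760 was at 8.91, 8.10 and 8.87 in max1 and 3.2, 3.1 and 2.37 in intact wild type, a closer set of arrays (5.74 ± 0.59, adjusted p = 5.6e-05). AT5G24240 was at 6.62, 6.70 and 5.79 in max1 and at 2.07, 2.06 and 2.08 in intact wild type (4.31 ± 0.15, adjusted p = 1.3e-10). The intact levels of AT4G22490, AT1G30760 and AT5G24240 lie in the low peak, so the order of these differences was not measured. AT1G15010 and AT4G33420 were higher by 4.31 and 3.70, with adjusted p of 0.068 and 0.088 in the 2-group fit. The first had an adjusted p of 0.026, which was 0.083 to 0.095 without max1 replicate 2, max1 replicate 3, intact replicate 1 or intact replicate 3.

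Counting probe sets that were below 3.5 in every array of one group and above 5 in every array of the other, 14 were on in max1 and off in intact wild type, and 2 were the reverse. The 14 included QQS, scpl30, AT5G24240, AT1G30760, AT4G22490, AT4G33420, AT4G25790 and AT5G63180, and the 2 were AT1G11280 and AT3G62280.

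Each list of microtubule genes held 1 lowered gene. IQD18, of a family of calmodulin-binding proteins that sit on cortical microtubules, was at 2.34, 2.18 and 2.15 in max1 and at 4.52, 4.63 and 5.62 in intact wild type. It fell to the low peak in every max1 array, by 2.70 on the log2 scale (SE 0.32, adjusted p = 0.00021). TUB5, a beta-tubulin, was at 8.82, 9.01 and 9.69 in max1 and at 10.64, 11.05 and 11.49 in intact wild type. The groups did not overlap, and the difference was -1.89 ± 0.39 (adjusted p = 0.013, or 0.091 in the 2-group fit), with 0.056 and 0.060 without max1 replicate 1 and without intact replicate 3. TUB5 was the only 1 of 9 tubulin and actin genes that passed, and TUB9 and TUB1 differed by -0.33 and -0.54 without passing. IQD18 was the only 1 that passed of 20 genes linked to cortical microtubules, a list whose median was -0.04. The share of lower ones among all probe sets that name 1 gene was 1.69%.

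TRM22 and TRM28, of the family of TON1 recruiting motif proteins, which bind microtubules, fell as well. TRM22 was at 5.71, 4.68 and 5.57 in max1 and at 7.07, 7.49 and 7.32 in intact wild type, and the arrays were well separated (-1.98 ± 0.21, adjusted p = 0.00011, or 0.080 in the 2-group fit). TRM28 averaged 5.02 in max1 and 6.77 in intact wild type (-1.75 ± 0.31, adjusted p = 0.0045). In a count added after these values were seen, the 15 TRM genes measured held these 2 lower and none higher, with a median of -0.03, against 1.69% lower among all probe sets that name 1 gene.

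ALC, PTL, TINY2 and CHR34 were also among the 12 most lowered genes with a symbol. ALC, a basic helix-loop-helix factor known from fruit opening, was at 4.17, 4.26 and 4.88 in max1 and at 6.36, 5.59 and 6.96 in intact wild type. The difference of -1.87 ± 0.39 had an adjusted p of 0.013, which was 0.052 and 0.062 without max1 replicate 1 and without intact replicate 3, and 0.14 in the 2-group fit. PTL, the trihelix factor PETAL LOSS, averaged 8.29 ± 0.49 in max1 and 9.89 ± 0.21 in intact wild type (SD, n = 3 each), lower by limma at an adjusted p of 0.0087 (0.092 in the 2-group fit). TINY2, an AP2/ERF factor, was at 2.11, 2.11 and 2.06 in max1 and at 3.46, 3.86 and 3.63 in intact wild type, so that it sat near the low peak even where it was higher (-1.56 ± 0.10, adjusted p = 1.2e-07). CHR34, a chromatin remodelling ATPase of the SNF2 family, averaged 3.71 in max1 and 6.01 in intact wild type (-2.30 ± 0.59, adjusted p = 0.041). It kept its call without max1 replicate 3 or intact replicate 1 and reached 0.12 to 0.14 without any other array and 0.12 in the 2-group fit.

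APA1, PIP and NAMT1 are enzymes of that group of lowered genes. APA1, an aspartic protease of the vacuole, was at 11.48, 11.22 and 11.39 in max1 and at 13.69, 13.31 and 13.48 in intact wild type. The arrays of each group agreed closely, and the fall of 2.13 on the log2 scale, 4.38-fold, had an SE of 0.12 (adjusted p = 4.8e-08, limma). PIP, a proline iminopeptidase, was at 7.49, 7.72 and 8.31 in max1 and at 9.31, 9.01 and 9.91 in intact wild type (-1.57 ± 0.22, adjusted p = 0.00062, or 0.13 in the 2-group fit). The methyltransferase gene NAMT1 averaged 8.23 in max1 and 9.56 in intact wild type (-1.33 ± 0.27, adjusted p = 0.011, or 0.10 in the 2-group fit and 0.051 without intact replicate 2).

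Lowered genes without a symbol included the widest gap of all. AT2G25450 was at 3.58, 3.60 and 4.08 in max1 and at 12.22, 12.67 and 12.52 in intact wild type. It was among the high values of an intact array and next to the low peak in max1, with a difference of -8.72 ± 0.29 (adjusted p = 1.0e-10), the largest of all 22746 probe sets. AT1G11280 was at 2.52, 2.38 and 2.36 in max1 and at 8.36, 8.65 and 8.30 in intact wild type, a clear level in one group and none above the low peak in the other (-6.02 ± 0.18, adjusted p = 2.5e-11). AT2G14460, AT1G09910 and AT1G04350 were lower by 4.71, 3.95 and 3.49 on the log2 scale, the last with an adjusted p of 0.087 in the 2-group fit.

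**Figure D2:**
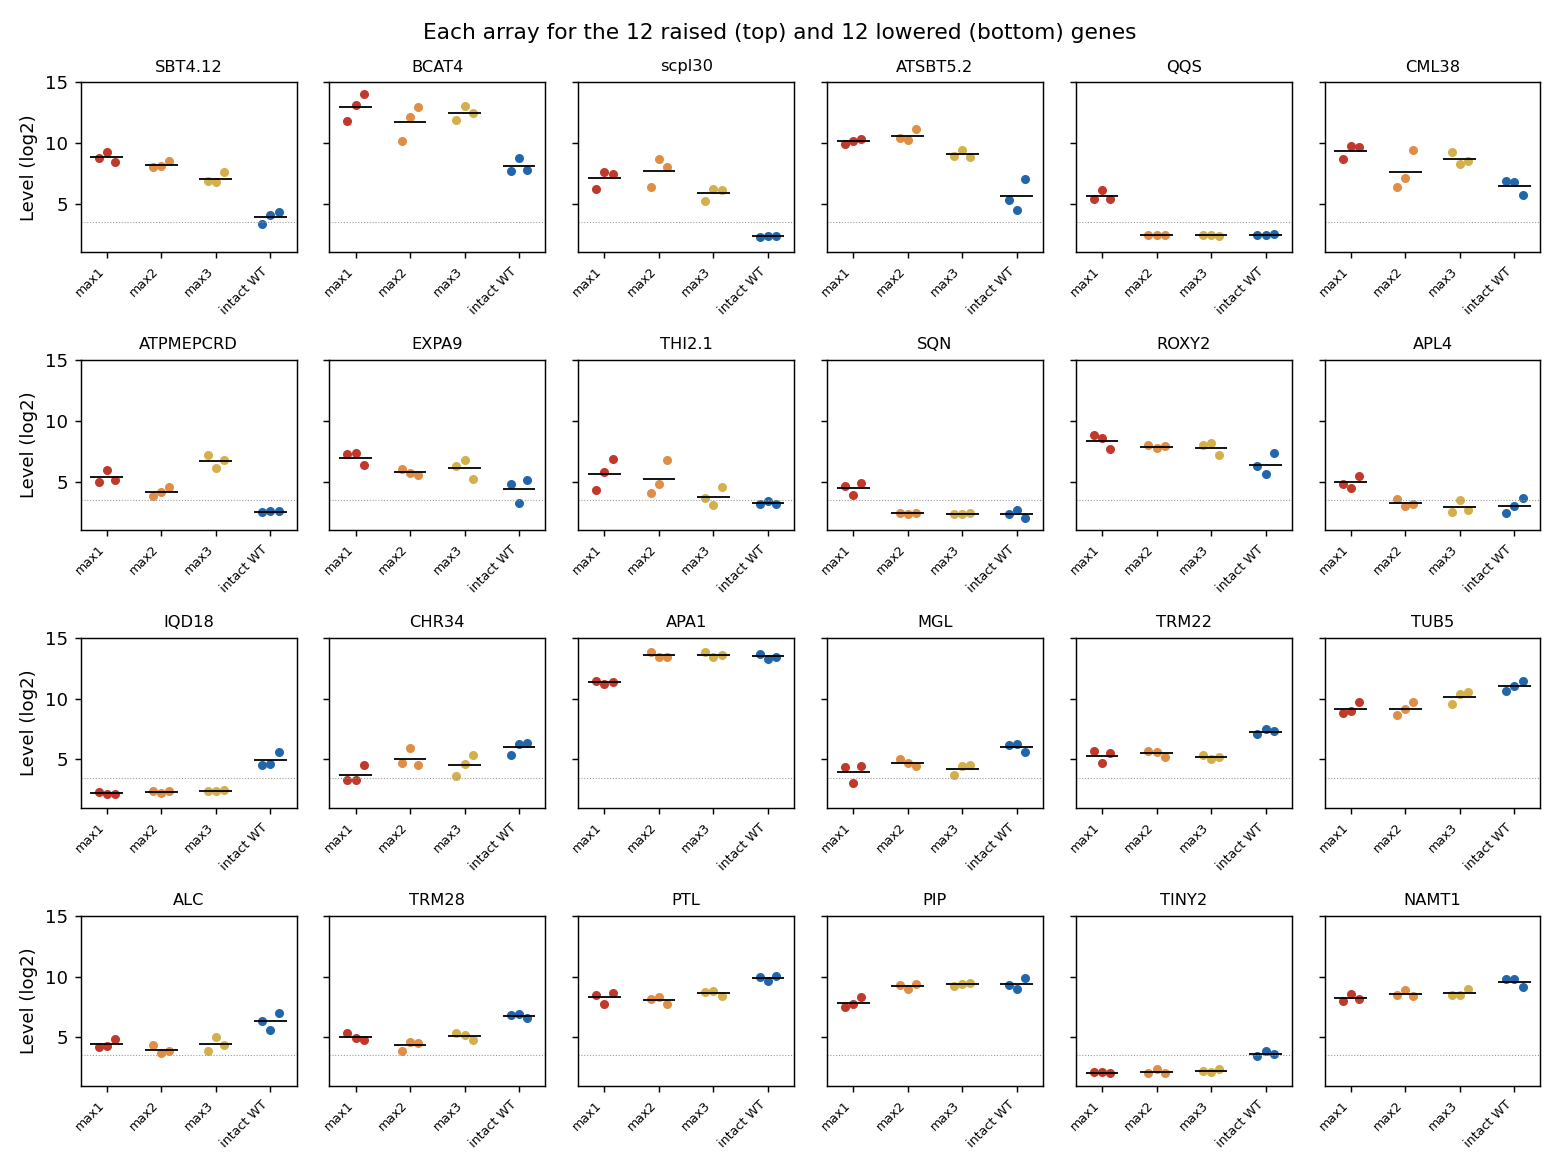
Each panel is 1 gene with a symbol, the 12 most raised in the upper 2 rows and the 12 most lowered in the lower 2 rows, with the log2 level of each array as a point, the group mean as a line and 3.5 as a dotted line. Groups run max1, max2, max3 and intact wild type; for QQS, SQN, APL4, APA1 and PIP the max2 and max3 arrays lie with intact wild type, and for scpl30, IQD18 and TRM22 they lie near max1.

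Pathways were described through 50 gene lists, of which 40 had a measured gene. They held 347 distinct measured genes, of which 17 were higher and 9 lower, against 3.34% called in either direction among all probe sets that name 1 gene. That share was 1.65% for higher and 1.69% for lower ones, and it stands beside the count of every list above and below. In the hormone lists at most 2 genes passed in any list. Of 8 early auxin response genes WAG2, a protein kinase that acts on auxin efflux carriers, was higher (1.73 ± 0.38, adjusted p = 0.018, or 0.18 in the 2-group fit). It averaged 5.09 in max1 and 3.36 in intact wild type, and its adjusted p was 0.078, 0.057 or 0.059 without max1 replicate 3, intact replicate 1 or intact replicate 2. PID2, a kinase of the same group, was at 3.09, 3.83 and 3.59 in max1 and at 2.46, 2.48 and 2.58 in intact wild type, higher but barely out of the low peak (0.99 ± 0.17, adjusted p = 0.0041, or 0.12 in the 2-group fit). WAG2 and PID2 were the only 2 genes measured on the list of auxin transport. GH3.3, which joins auxin to amino acids, averaged 7.78 in max1 and 4.87 in intact wild type without passing (2.91 ± 0.85, adjusted p = 0.075). None of 7 Aux/IAA genes, which encode auxin-labile repressors, passed, and 5 of them lay in the low peak in both groups.

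ARR15, a negative regulator of cytokinin signalling, was at 8.07, 7.19 and 7.59 in max1 and at 8.57, 8.84 and 9.08 in intact wild type, the only 1 of 6 response regulators that passed. Its adjusted p of 0.048 for a difference of -1.21 ± 0.32 was 0.068 to 0.17 without any 1 of the arrays other than max1 replicate 1. The adjusted p was 0.14 in the 2-group fit and 0.054 after a second quantile normalization or over the probe sets that name 1 gene. Of 8 genes of abscisic acid and dehydration, the dehydrin COR47 was higher by 1.02 ± 0.22 and RD2 was lower by 0.96 on the log2 scale (adjusted p of 0.16 and 0.064 in the 2-group fit). COR47 averaged 11.95 in max1 and 10.93 in intact wild type, and its adjusted p of 0.016 was 0.077 and 0.066 without max1 replicate 3 and without intact replicate 3. LTI30, another dehydrin, averaged 11.31 in max1 and 9.10 in intact wild type without passing (2.21 ± 0.80, adjusted p = 0.17). The lists of gibberellin (3 genes), jasmonate (3), salicylic acid and defence (9) and ethylene (1) held no gene that passed; ORA47, an early jasmonate response factor, had -1.09 ± 0.80 and the gibberellin receptor GID1A -0.53 ± 0.17.

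On the list of the secondary wall 2 of 8 genes were higher and none was lower, with a median of 0.59. Among all probe sets that name 1 gene 1.65% were higher. GUT2, a glycosyltransferase of the xylan backbone, was at 9.50, 9.12 and 9.78 in max1 and at 8.60, 8.04 and 8.46 in intact wild type. The arrays did not overlap, and the difference was 1.10 ± 0.22 (adjusted p = 0.0100). HCT, an acyltransferase of lignin precursor synthesis, averaged 12.34 in max1 and 11.65 in intact wild type (0.69 ± 0.18, adjusted p = 0.039). CCR2, a lignin enzyme, and IRX15, a xylan gene, differed by 0.89 and 1.17 without passing (adjusted p of 0.090 and 0.21). GUT2 had an adjusted p of 0.056 without max1 replicate 3 and 0.051 without intact replicate 2, and HCT held its call only without intact replicate 1 (0.051 to 0.14 otherwise). In the 2-group fit they had 0.13 and 0.14, and HCT was at 0.073 with array medians subtracted.

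Of 22 trichome birefringence-like genes, many of which encode enzymes that acetylate wall polysaccharides, TBL34 and TBL38 were higher and none was lower. The share of higher ones among all probe sets that name 1 gene was 1.65%. TBL38 was at 11.29, 11.14 and 10.96 in max1 and at 9.63, 9.68 and 9.73 in intact wild type, tight in each group (1.45 ± 0.19, adjusted p = 0.00052). TBL34 was at 8.87, 8.63 and 9.26 in max1 and at 7.26, 6.69 and 8.08 in intact wild type (1.57 ± 0.31, adjusted p = 0.0097, or 0.18 in the 2-group fit and 0.052 without max1 replicate 3). GH9B18, 1 of 15 endoglucanases, was lower by 1.32 on the log2 scale, at 2.71 in max1 and 4.03 in intact wild type, levels in and just above the low peak. None of 9 xyloglucan enzymes passed, and they ranged from -1.10 for XTH16 to 1.44 for XTH18.

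Of 5 regulators of cambium and phloem CLE41, the peptide that is made in phloem and acts on the cambium, was lower. It was at 10.70, 10.76 and 10.35 in max1 and at 11.50, 11.55 and 11.65 in intact wild type, a narrow but complete separation (-0.96 ± 0.18, adjusted p = 0.0074, or 0.054 in the 2-group fit). Its close relative CLE44 differed by -0.48 ± 0.21 and MOL1, a receptor-like gene of the cambium, by -0.42 ± 0.19, and neither passed (adjusted p of 0.29 for each). RALFL34, a RALF-family signalling peptide known from root branching, was at 11.22, 11.13 and 11.09 in max1 and at 12.03, 12.04 and 12.07 in intact wild type. These 2 peptides were the only ones of 18 CLE and RALF genes that passed, both lower, and RALFL34 had a small but well measured difference (-0.90 ± 0.11, adjusted p = 0.00020).

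Of 5 genes of mitosis and cytokinesis 1 passed. BUB3.2, a spindle checkpoint gene, was lower by 0.47 on the log2 scale at a level around the low peak, 2.89 in max1 and 3.36 in intact wild type, and the call was lost without any 1 of the 6 arrays (adjusted p of 0.045 with all, 0.055 to 0.16 without 1). The adjusted p was 0.11 in the 2-group fit, 0.059 after a second quantile normalization and 0.050 over the probe sets that name 1 gene. The Aurora kinases AUR1, AUR2 and AUR3 differed by -0.45, -0.24 and -0.25 and did not pass. HTB1, a histone H2B, was the only 1 of 5 core histone genes that passed, at 9.98 in max1 and 9.35 in intact wild type (0.62 ± 0.16, adjusted p = 0.045). It held its call only without intact replicate 1, with 0.052 to 0.18 otherwise, 0.29 in the 2-group fit, 0.082 with array medians subtracted and 0.051 over the probe sets that name 1 gene.

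The 69 measured genes encoded in the plastid had a median difference of 0.48, against -0.03 over all probe sets. The mean over the list was 9.81 to 10.17 in the max1 arrays and 9.43 to 9.63 in the intact arrays, which do not overlap. Only ndhC, a subunit of the plastid NADH dehydrogenase-like complex, passed (1.03 ± 0.26, adjusted p = 0.041). An unadjusted p below 0.05 was seen in 30 of the 69, and over all 22746 probe sets in 1577 higher and 2020 lower ones. The call on ndhC was lost without any 1 array other than intact replicate 1 (0.052 to 0.15), with array medians subtracted (0.057) and in the 2-group fit (0.14). The 10 measured nuclear genes of photosynthesis had a median of 0.20 and none passed. Likewise no gene passed among 8 of flavonoid and anthocyanin synthesis (median -0.42), 22 cytochromes P450, 7 of low oxygen, 3 class III peroxidases and 2 of clock and light.

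**Figure D3:**
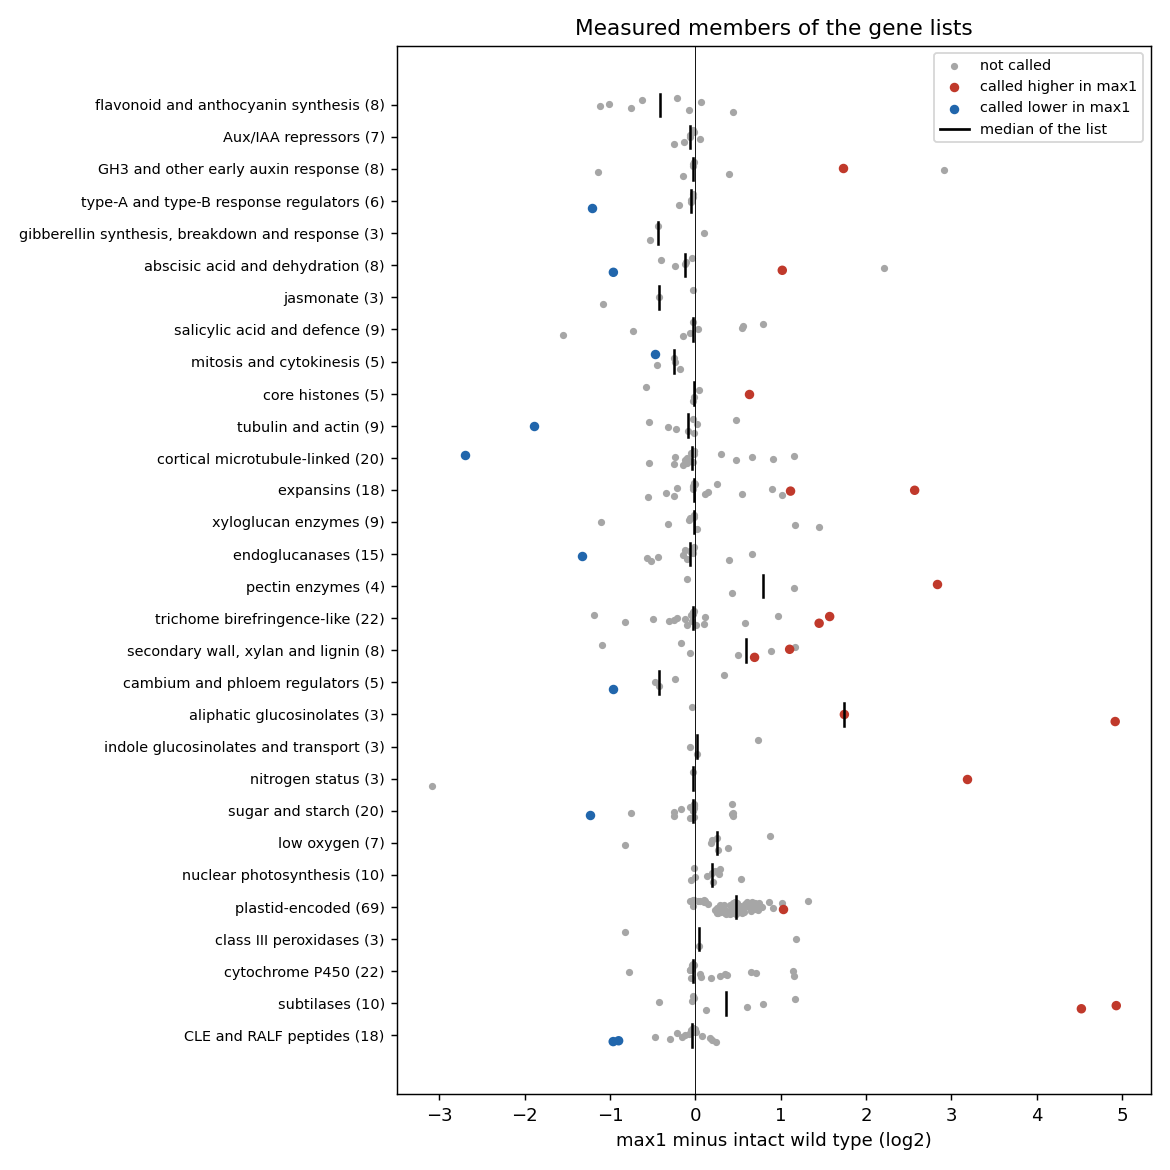
Points are the measured members of each list of 3 or more genes, placed by the log2 difference max1 minus intact wild type, with the number of members in brackets. Red and blue points passed the test and black lines are list medians; the plastid-encoded genes cluster around 0.48 with 1 called, and the farthest called points are SBT4.12 at 4.93 and IQD18 at -2.70.

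The max1 arrays were next set against the mean of max2 and max3, which carry mutations in the same pathway. Far fewer probe sets differed here, 30 higher (0.132%) and 43 lower (0.189%) in max1, 73 or 0.321% in all. At an unadjusted p below 0.05 there were 833. The 3 max1 arrays lay outside the range of the 6 max2 and max3 arrays in 70 of the 73, against 1.42% of all probe sets. Of the 851 probe sets called against intact wild type 58 were also called here in the same direction; both comparisons use the same max1 arrays. Fitted on the 9 arrays of the 3 mutants alone, 11 were higher and 22 lower. Singly, max1 differed from max2 in 59 probe sets (0.259%) and from max3 in 82 (0.361%).

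Only 5 of the 24 genes with a symbol described above passed against max2 and max3. QQS averaged 5.62 ± 0.43 in max1, against 2.42 ± 0.02 in max2, 2.38 ± 0.04 in max3 and 2.44 ± 0.02 in intact wild type (SD, n = 3 each). It left the low peak in max1 only, and the difference from the mutants was 3.22 ± 0.13 (adjusted p = 5.2e-10, limma). SQN was higher by 2.1 ± 0.19 and APL4 by 1.89 ± 0.31 (adjusted p of 1.4e-05 and 0.0088, the second 0.088 without max1 replicate 3 and 0.16 when the 3 mutants are fitted alone). APA1 averaged 11.36 in max1, against 13.58 in max2, 13.62 in max3 and 13.49 in intact wild type. It and PIP were lower in max1 than in the other mutants by 2.24 and 1.47 on the log2 scale, PIP with an adjusted p of 0.00084, or 0.064 when the 3 mutants are fitted alone.

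ATCOAE and XCT passed here as well. ATCOAE, of coenzyme A synthesis, was at 8.17, 8.35 and 8.36 in max1 and averaged 6.93 in max2, 6.78 in max3 and 6.95 in intact wild type (1.44 ± 0.16, adjusted p = 0.00022). XCT, known from the circadian clock, was higher by 0.41 ± 0.07 than in max2 and max3 (adjusted p = 0.018). It did not pass against intact wild type (0.27, adjusted p = 0.094). Its call against the mutants was lost without max1 replicate 1 (0.13) or replicate 2 (0.12), with only the compared groups (0.41), with either rescaling (0.058 and 0.063), above a mean of 4 (0.069), and in the trended robust fit (0.26).

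Genes without a symbol gave the largest of these differences. AT2G25450 was at 3.75 in max1, against 12.89 in max2, 13.2 in max3 and 12.47 in intact wild type, and it was lower than in the other mutants by 9.29 on the log2 scale. AT1G11280 was at 2.42 in max1 and at 8.60 in max2, 8.66 in max3 and 8.44 in intact wild type. In both, max1 stood alone and the other 3 genotypes lay within 0.73 of each other. AT5G24240 was the counterpart on the raised side, at 6.37 in max1 and at 2.05, 2.04 and 2.07 in max2, max3 and intact wild type. AT1G12080 was at 12.63 in max1, 10.57 in max2, 11.02 in max3 and 12.02 in intact wild type. It passed against max2 and max3 (1.84 ± 0.36, adjusted p = 0.038, limma) but not against intact wild type (0.61, adjusted p = 0.47). Its adjusted p against the mutants was 0.065 with the replicate block, 0.11 with only the compared groups, and above 0.05 without 8 of the 9 arrays in turn, up to 0.27 without max1 replicate 3.

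The genes called in max1 against the mean of max2 and max3 lay mostly in 2 stretches of the genome. Of the 73 probe sets, 48 named 1 gene with a place in the reference annotation (TAIR10.1, used for gene order only). Of these 21 lay on chromosome 1 between AT1G03660 and AT1G12230, a run of 939 of the 7156 protein-coding genes there. Another 22 lay on chromosome 2 between AT2G14110 and AT2G27490, a run of 1341 of 4317 genes. No called gene of chromosomes 1 or 2 fell outside its run, because each run was drawn from the first to the last called gene after the values were seen. The remaining 5 were QQS, AT5G24240, AT5G52070, AT3G07230 and AT3G19310, and chromosome 4 held none. AT5G52070 was at 8.19 in max1, 6.85 in max2, 6.92 in max3 and 6.5 in intact wild type.

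In 45 of the 48 genes the max1 arrays lay outside the range of the max2 and max3 arrays, 42 of them in the runs and 3 elsewhere. In the other 3 genes max1 overlapped one of these mutants. AT3G07230 was at 11.57 in max1, 11.59 in max2, 2.22 in max3 and 11.16 in intact wild type, so that max3 alone was low. AT3G19310 was at 2.53 in max1, 3.69 in max2, 2.60 in max3 and 2.49 in intact wild type, with max2 the one above the low peak. AT2G19970, inside the run on chromosome 2, was at 10.95 in max1, 9.75 in max2, 10.93 in max3 and 11.74 in intact wild type. Its adjusted p of 0.019 was 0.059, 0.10 or 0.050 without max1 replicate 1, max1 replicate 2 or max2 replicate 3, and 0.38 when the 3 mutants are fitted alone, where AT3G19310 had 0.45.

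In the runs 43 of 1031 tested genes were called against max2 and max3 (4.17%), 17 higher and 26 lower in max1. At all other positions 5 of 11382 were called (0.0439%). The borders of the runs were drawn from these same calls, so this contrast follows in part from the choice. The MAX1 locus, AT2G26170, is gene 1964 in the order of chromosome 2 and lies inside the second run, which spans genes 765 to 2105. SQN, APL4, PIP, AT2G14460, AT2G25450, ATCOAE and XCT lie in the run on chromosome 2, and APA1, AT1G04350, AT1G09910, AT1G11280 and AT1G12080 in that on chromosome 1. Some named genes called against intact wild type, but not against max2 and max3, also lie in the runs. They are CHR34, RD2 and PID2 on chromosome 2 and HTB1 on chromosome 1. Against intact wild type the runs held 84 called genes of 1031 (8.15%), and other positions 365 of 11382 (3.21%). That is not a separate result. Both comparisons use the same max1 arrays, and most genes that set the runs were also called against intact wild type. Leaving out the probe sets that name a gene in either run, 393 probe sets were higher and 349 lower than in intact wild type, and 11 higher and 14 lower than in max2 and max3. Probe sets without a place in the gene order stayed in these counts. They were 25 of the 73 called against max2 and max3, and whether they lie in the runs is not known.

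**Figure D4:**
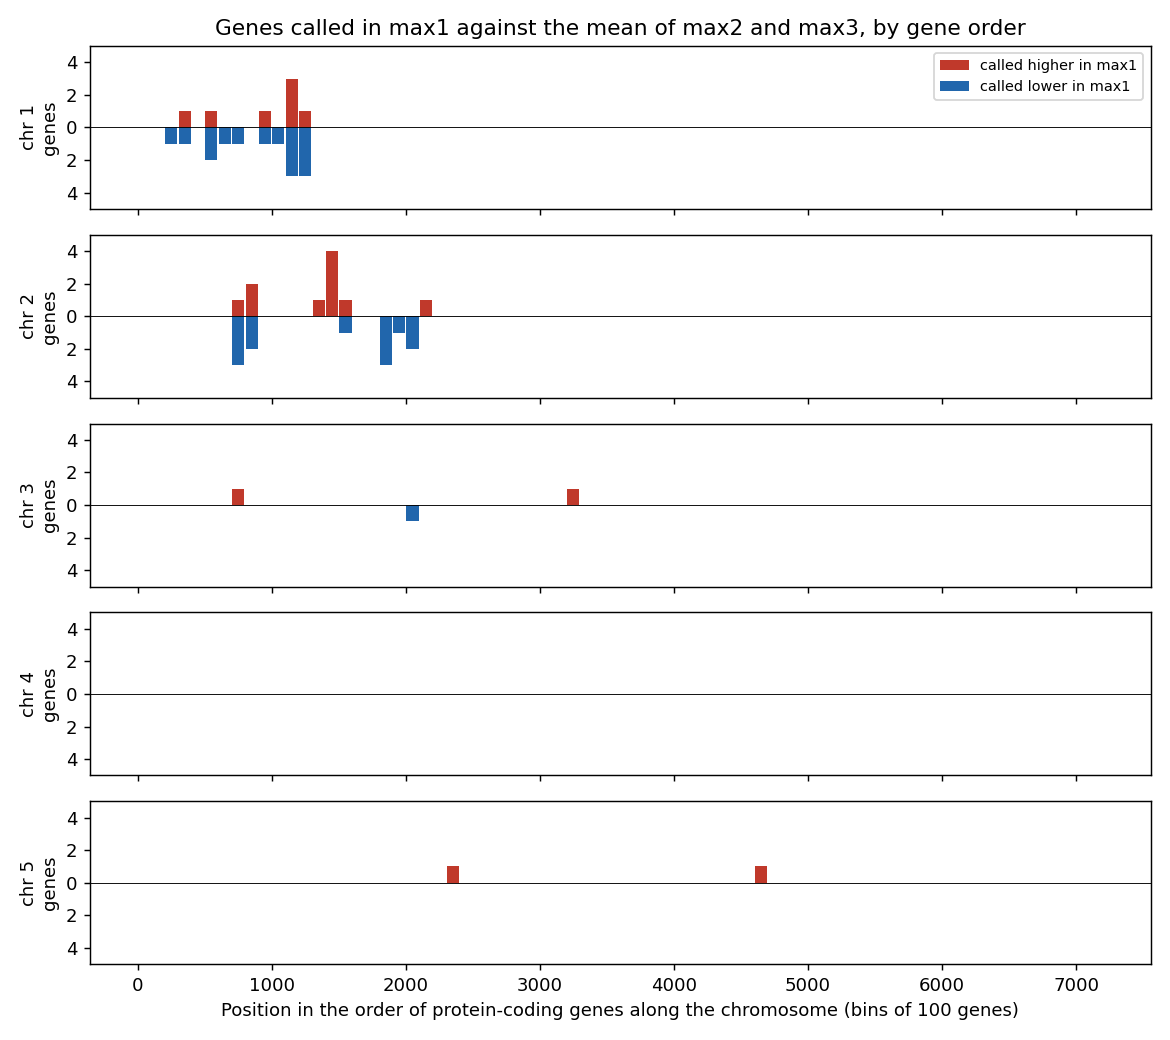
Bars count the genes called in max1 against the mean of max2 and max3 in bins of 100 protein-coding genes along each chromosome, with higher ones (red) above 0 and lower ones (blue) below. The 43 genes of chromosomes 1 and 2 fall in 2 runs, 3 and 2 genes lie on chromosomes 3 and 5, and chromosome 4 has none.

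The other genes with a symbol described against intact wild type did not pass against max2 and max3, which does not show that their levels are equal. SBT4.12 averaged 8.82 in max1, 8.21 in max2 and 7.06 in max3, against 3.89 in intact wild type. IQD18 averaged 2.22, 2.33 and 2.43 in the 3 mutants, against 4.92 in intact wild type, and TRM22 5.32, 5.53 and 5.21, against 7.29. The differences of max1 from the mean of max2 and max3 were 1.18 ± 0.33 for SBT4.12, -0.15 ± 0.28 for IQD18 and -0.05 ± 0.19 for TRM22, and none passed. BCAT4 was at 13.00, 11.74 and 12.50 in max1, max2 and max3, against 8.08 in intact wild type. Called probe sets against intact wild type made up 3.12% in max2 and 2.02% in max3. The BCAT4 differences of 3.67 ± 1.25 in max2 and 4.43 ± 1.25 in max3 did not pass (adjusted p of 0.16 and 0.086). The 3 mutants are compared with the same intact arrays, so these differences share their error.

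The treated wild-type groups placed the same genes differently, as levels that were not tested against max1. SBT4.12 was at 7.92 ± 0.40 in decapitated and 8.69 ± 0.38 in NPA-treated plants, near the mutants, and at 2.95 ± 0.81 in decapitated plants given IAA, below the 3.89 ± 0.49 of intact plants (SD, n = 3 each). ATSBT5.2 was at 10.13 in max1 and at 10.41 and 10.38 in decapitated and NPA-treated plants, with 8.19 under IAA and 5.61 in intact plants. IQD18 was in the low peak in max1, decapitated and NPA-treated plants, at 2.22, 2.21 and 2.48.

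MGL, TRM22 and TBL34 stood on opposite sides of intact wild type in max1 and in decapitated plants. MGL was at 3.95 in max1, 8.84 in decapitated and 9.45 in NPA-treated plants, against 6.03 in intact plants. TRM22 was at 5.32 in max1, 8.24 in decapitated and 8.26 in NPA-treated plants, against 7.29 in intact plants. TBL34, the other way round, was at 8.92 in max1, 3.07 in decapitated and 3.2 in NPA-treated plants, against 7.35 in intact plants. Against intact wild type each of these genes passed in max1, after decapitation (where 26.2% of probe sets were called) and after NPA (27.8%), with MGL at -2.08 ± 0.32, 2.81 ± 0.32 and 3.42 ± 0.32. scpl30 was at 7.08 in max1 and in the low peak in decapitated (2.32) and NPA-treated plants (2.50).

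**Figure D5:**
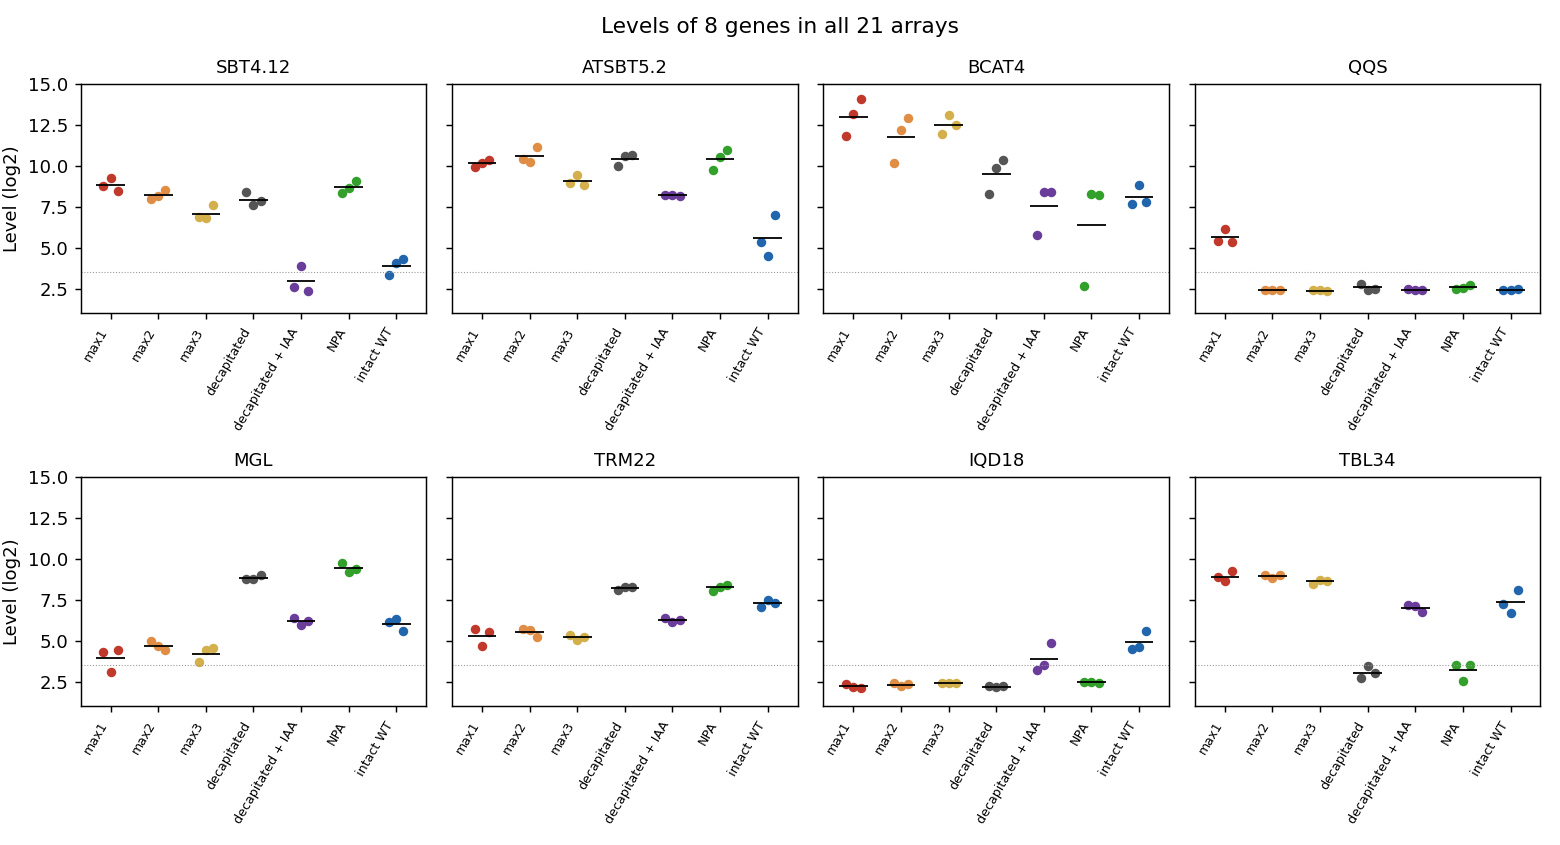
Levels of 8 genes (log2) in each of the 21 arrays, with group means as lines and 3.5 as a dotted line, in the order max1, max2, max3, decapitated, decapitated with IAA, NPA and intact wild type. QQS is high in max1 only, and MGL and TRM22 are below intact wild type in the mutants and above it in decapitated and NPA-treated plants.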

How the data were processed

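Expression was measured on Affymetrix ATH1 arrays. The deposited expression values are log2 levels, made with RMA, GCRMA and R 3.2.2 per the submitters' processing notes, which give no roles for these tools. They were neither rescaled nor filtered. Of 22810 probe sets 64 controls were left out. The probe table named 1 gene for 13513, several for 503 and none for 8730; the last 2 kinds were tested and counted but not named. For each gene of a list the probe set with the highest mean was taken.

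Group means over all 21 arrays were fitted with limma 3.58.1 in R 4.3.3, with eBayes (degrees of freedom 14 residual, 1.03 prior). Adjusted p-values are after Benjamini-Hochberg over the 22746 probe sets. The fit was also run on simulated data with independent noise. Those data lack the shared deviation of arrays with the same replicate number, so that run checks the code only. Genes named are the 12 most raised and 12 most lowered called genes with a symbol, and 5 each way without one. All of these had to have max1 arrays that did not overlap the intact arrays. List members that passed were also named, or those with the smallest p in lists where none passed, with other members beside them. Genes called against max2 and max3 were named as well. The members and lists were chosen with earlier results of these data known. GH3.3, GAT1_2.1, the genes without a symbol named against max2 and max3, the 2 runs and the family counts were chosen after the values were seen.

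Per the labels the treatments of a replicate were done at the same time. The max1 and intact arrays of the same replicate number deviated together (correlations of 0.386, 0.257 and 0.401). Precision is limited by the 3 arrays of a group. Alternatives were the replicate block, only the compared groups, 2 rescalings, a filter at a mean of 4, array weights, a trended robust fit, a minimum difference of 1, probe sets naming 1 gene, and leaving out each array.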

Additional observations from a re-analysis of the deposited data

Results flagged for a closer look

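For 18 genes named above, the effect of max1 against intact wild type differed from the mean effect of max2 and max3. This was a direct test in the same fit (limma, adjusted p below 0.05). The intact arrays cancel out of the difference tested, and all 18 tests use the same max1, max2 and max3 arrays. Higher in max1 were AT3G07230 by 4.66, AT5G24240 by 4.33, QQS by 3.22, SQN by 2.1, APL4 by 1.89, AT1G12080 by 1.84, ATCOAE by 1.44, AT5G52070 by 1.31, AT2G19970 by 0.61 and XCT by 0.41. Lower in max1 were AT2G25450 with -9.29, AT1G11280 with -6.21, AT2G14460 with -4.50, AT1G04350 with -4.03, AT1G09910 with -3.98, APA1 with -2.24, PIP with -1.47 and AT3G19310 with -0.62. In AT3G07230, AT3G19310 and AT2G19970 the max1 arrays overlap those of max2 or max3, and max1 is not the genotype that stands apart. Against intact wild type AT3G07230 differed by 0.40 in max1, 0.43 in max2 and -8.94 in max3. In the same order AT3G19310 differed by 0.04, 1.21 and 0.12, and AT2G19970 by -0.79, -1.99 and -0.81. QQS, AT5G24240, AT5G52070, AT3G07230 and AT3G19310 lie outside the 2 runs of neighbouring genes.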

How the results depend on the processing

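Against intact wild type, called probe sets numbered 697 higher and 721 lower with the replicate block, 102 and 96 with only the compared groups fitted, 1052 and 1112 with array weights, 205 and 208 over probe sets naming 1 gene, and 249 to 349 and 250 to 335 without 1 array. A minimum difference of 1 left 171 lower. Against max2 and max3, they numbered 11 higher and 22 lower with only the compared groups, 61 and 79 with array weights, and 22 to 43 and 34 to 48 without 1 array. With the probe sets placed in the runs left out, an alternative added after seeing the data, they numbered 11 and 14. Probe sets without a place in the gene order stayed in that count. A mean of at least 4 left 19 higher, a minimum difference of 1 left 18 higher, and probe sets naming 1 gene 28 lower. The fits on fewer groups or probe sets rest on fewer arrays or tests; for the other settings the cause was not tested. Among named genes called in the main fit or in the alternative, none changed direction. Sign changes of genes called in neither fit were not counted. Of 78 named calls 31 held in all alternatives, the minimum difference aside; fitting only the compared groups lost 35 of 52 against intact wild type and 11 of 26 against max2 and max3. The replicate block moved no named call but that of AT1G12080 against max2 and max3.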
